A study of Mus musculus with 12 samples.

Results

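Livers of mice lacking FBXL5 in CD11c-expressing cells (FBXL5ΔDC) were compared 6 h after acetaminophen and untreated, in 6 of the 12 libraries of the series. The members are the 3 libraries labelled as treated and the 3 labelled as untreated of this genotype, and all genes of the table were examined. FBXL5ΔDC mice carried loxP-flanked Fbxl5 alleles together with CD11c-Cre, a Cre recombinase driven by the promoter of Itgax, the gene of CD11c. The control genotype of the series carried the same loxP-flanked alleles (Fbxl5F/F) without Cre. All mice were males aged 7 to 10 weeks kept under specific pathogen-free conditions. Treated mice were fasted for 16 h, received 300 or 500 mg/kg acetaminophen (20 mg/ml in PBS) into the peritoneum and then had food. The labels do not say which dose these mice received, nor whether untreated mice were fasted, so drug, fasting and refeeding cannot be told apart here. CD11c-Cre is active mainly in dendritic cells and also in some macrophages, and RNA came from whole liver, where most RNA is from hepatocytes. In such bulk samples fewer cells of a type and less RNA per cell cannot be told apart. The labels number the livers within each group and do not describe litters or cages, so p-values measure only the spread between these samples.

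Acetaminophen in overdose is oxidised by cytochrome P450 enzymes, above all in hepatocytes around the central vein, to a reactive quinone imine. This metabolite is captured by glutathione and, once glutathione is used up, binds proteins, impairs mitochondria and activates stress kinases, which leads to pericentral necrosis. FBXL5 senses iron and, within a ubiquitin ligase complex, marks the iron regulatory protein IRP2 for degradation when iron is plentiful. The comparison asks how the liver of mice without FBXL5 in CD11c-expressing cells responds to the drug.

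Total counts were 70112848 to 72512319 in the 3 untreated and 67173096 to 71568904 in the 3 treated FBXL5ΔDC libraries. CPM denotes counts scaled to the TMM-adjusted library size, and values stand in the order of libraries 1, 2 and 3 of a group. In a principal component analysis of the 500 most variable genes of these 6 libraries, the leading component held 74.8% of the variance and put all untreated libraries on one side (-49.57, -47.2 and -49.54) and all treated ones on the other (46.17, 49.29 and 50.86). The next component held 8.7% and set treated library 2 (-32.85) apart from treated libraries 1 (13.27) and 3 (19.6). Leaving out 1 library changed many small counts: over the 52 gene lists examined, 24 of the 30 counts of 1 to 3 called members moved by over 1.5 times without 1 of the 12 libraries, as did 27 of the 55 larger counts.

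Of 17585 genes tested with edgeR's quasi-likelihood test, 2638 rose and 2648 fell at an adjusted p below 0.05, which are 15.0% and 15.1% of the genes tested. At least 4-fold changes were estimated for 790 of the genes that rose and 429 of those that fell, and at least 16-fold changes for 271 and 145. In 24.2% of the genes tested all 3 treated libraries were above all 3 untreated ones, and in 24.5% they were below. Of the called genes, 2601 of 2638 risers and 2631 of 2648 fallers had libraries that did not overlap in this way. The genes that rose took 19.5%, 18.8% and 20.4% of all counts in the untreated libraries and 33.9%, 35.4% and 34.7% in the treated ones. The share of the genes that fell went from 20.1%, 20.3% and 19.9% to 8.69%, 8.14% and 8.88%. Falls were more frequent among genes of 100 to 1000 CPM in untreated livers, where 32.3% of 1092 genes fell and 9.89% rose. Among long intergenic noncoding RNAs 17.3% of 452 fell and 5.97% rose. The plot of level against change shows both sides of the response.

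**Figure D1:**
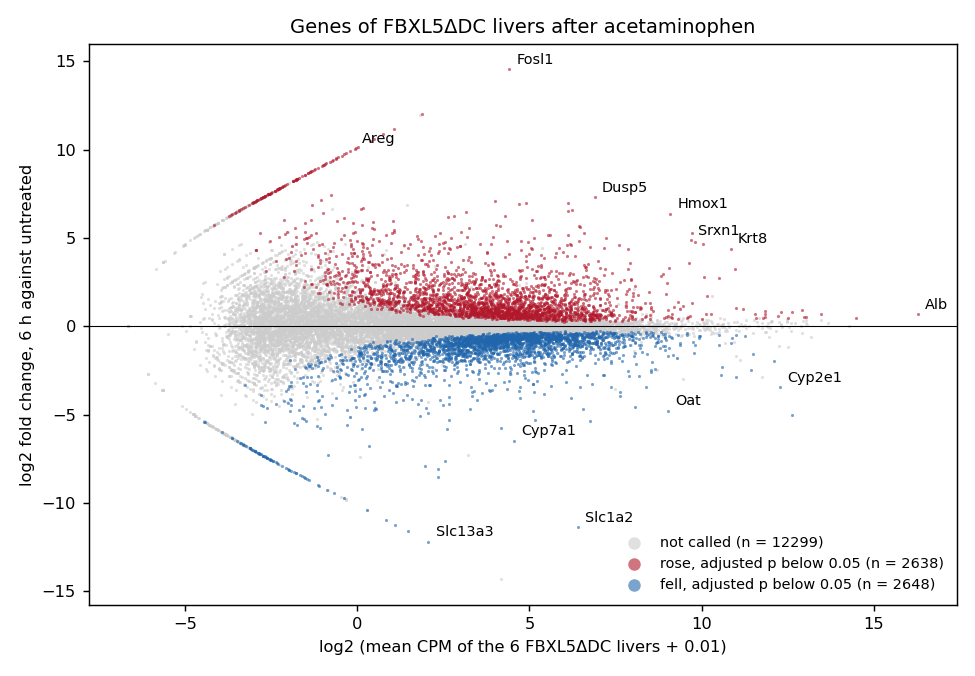
Each point is 1 of 17585 genes, with the log2 of its mean CPM over the 6 FBXL5ΔDC livers (0.01 added) on the horizontal axis and its edgeR log2 fold change (6 h against untreated) on the vertical axis. The 2638 genes that rose are red, the 2648 that fell are blue, and the straight outer edges are genes with 0 counts in every library of 1 group, whose fitted values depend on the prior count.

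The 20 largest rises that met the rule for naming genes covered inflammation, signalling and epithelial genes as well as the groups described below. Fam83c had no counts untreated and 1.74, 2.26 and 2.04 CPM treated, at least 11.5-fold higher. Hilpda, a lipid droplet protein induced in hypoxia, went from 1.56, 1.205 and 1.62 to 129, 164 and 119.5 CPM, and Sphk1, which makes sphingosine-1-phosphate, from 0.257, 0.338 and 0 to 18.5, 13.7 and 20.8 CPM. Nrg1, a ligand of ERBB3, went from 0, 0.4996 and 0.0447 to 13.99, 9.86 and 17.6 CPM, and Thbs1, the matrix protein thrombospondin, from 0.171, 0.602 and 1.01 to 26.2, 34.6 and 35.6 CPM. Ccdc120 (0.643, 0.838 and 0.521 to 26.5, 33.96 and 44.03 CPM) and the potassium channel subunit Kcne4 (0.0572, 0.0441 and 0.0894 to 3.84, 4.97 and 3.34 CPM) rose, as did the epidermal lipoxygenase Aloxe3 (0.0572, 0 and 0 to 2.23, 1.099 and 3.31 CPM) and Grrp1 (0.0572, 0 and 0 to 1.397, 2.44 and 2.55 CPM). All of these were at or below 1.01 CPM in every untreated liver, apart from Hilpda. Among the 20 largest falls, Nxpe2 went from 9.45, 11.9 and 13.2 to 0, 0 and 0.164 CPM, the phosphatase Lhpp from 58.6, 75.5 and 63.9 to 3.301, 1.76 and 2.101 CPM, and Clstn3, a calsyntenin, from 15.6, 25.6 and 14.7 to 1.198, 0.705 and 0.298 CPM. Rhbg, an ammonium transporter of pericentral hepatocytes, went from 9.39, 13.8 and 8.77 to 0.353, 1.13 and 0 CPM, Fam89a from 9.22, 8.67 and 6.36 to 0.384, 0 and 0.417 CPM, and the Wnt target Tnfrsf19 from 1.83, 2.07 and 2.79 to 0.0614, 0.148 and 0.0596 CPM. Rcan2, a calcineurin regulator, went from 5.501, 9.096 and 8.18 to 0.307, 0.623 and 0 CPM. Mup9, one of the urinary protein genes with near-identical copies, went from 224, 1170.4 and 159.97 to 32.1, 19.2 and 13.4 CPM, with untreated library 2 above the other untreated livers, and lost its call without treated library 2 or 3 (adjusted p = 0.05199 to 0.05297). The log2 change of some of these genes moved by over 1.5 times, as a fold, when 1 library was left out. Without untreated library 1 it went from 6.71 to 10.29 in Aloxe3 and from 6.66 to 10.23 in Grrp1, and without untreated library 2 from 6.46 to 7.06 in Sphk1 and from -4.59 to -3.16 in Mup9. It went from 6.24 to 5.65 and 9.19 in Nrg1 without untreated library 1 or 2, and from 5.75 to 6.37 in Thbs1 without untreated library 3. Without treated library 2 or 3 it went from -4.44 to -5.91 and -3.85 in Rhbg and from -4.62 to -5.62 and -4.03 in Rcan2. Without treated library 3 it went from -7.63 to -12.68 in Nxpe2. In Aloxe3, Grrp1 and Nxpe2 the libraries left in that group held 0 counts, so the values of these fits depend on the prior count.

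Fbxl5 itself (ENSMUSG00000039753.16, GRCm38 chr5:43744615-43821638) was at 10.3, 19.8 and 21.4 CPM in untreated and 21.4, 21.8 and 12.5 CPM in treated FBXL5ΔDC livers. Untreated library 1 and treated library 3 were the lowest, and the groups overlapped (log2 change 0.12 ± 0.27 (SE), edgeR adjusted p = 0.797). The deletion was confined by design to CD11c-expressing cells, so whole-liver Fbxl5 is no check of it. Itgax was at 0, 0.0735 and 0.268 CPM in untreated and 0.584, 0.509 and 0.149 CPM in treated livers, and its groups overlapped. Of 18 dendritic cell markers tested, Irf8, a transcription factor of dendritic cells and macrophages, rose from 4.401, 3.16 and 3.81 to 15.9, 23.8 and 19.98 CPM and no other member was called with all libraries. The number that rose was 3 without untreated library 1 and 2 without treated control library 1. The cross-presenting dendritic cell markers Xcr1 and Clec9a were not called in the fit of all libraries. Xcr1 was at 0.157, 0.323 and 0.164 CPM untreated and at 0 in each treated liver (adjusted p = 0.0637), and was called as falling by DESeq2 (adjusted p = 0.0168) and with the FBXL5ΔDC groups alone (edgeR adjusted p = 0.019). Clec9a was at 1.53, 1.44 and 0.685 CPM untreated and 1.47, 0.492 and 1.77 CPM treated. The summed counts of the 18 markers were 0.00661%, 0.00722% and 0.00430% of all counts in untreated and 0.0109%, 0.00929% and 0.0104% in treated libraries. The liver label fitted the level of Alb, the albumin gene of hepatocytes, at 61319, 54846 and 65064 CPM in untreated and 102265, 111567 and 80392 CPM in treated livers, and Alb was called as rising, though not without untreated library 1, 2 or 3 or treated library 1 or 2 (adjusted p = 0.0574 to 0.104).

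Transcription factors of the immediate early class, which are switched on by growth factors and stress kinases within minutes, rose in FBXL5ΔDC livers. Of 24 tested, 18 rose and none fell, with a median log2 change of 3.34 against 0.017 over all genes tested. Fosl1, an AP-1 subunit, had no counts in the untreated livers and 46.8, 53.7 and 26.7 CPM in the treated ones, at least 242-fold higher when set against a floor of 12 counts per library (adjusted p = 0.0247). It lost its call without untreated library 1, 2 or 3 or treated library 1 or 2 (adjusted p = 0.0537 to 0.0659). Its locus (chr19:5447547-5455946) overlaps Ccdc85b on the other strand, and many genes named here overlap a gene on the other strand in this way. Without the strand setting of the counting, which the sources used here do not give, reads of such pairs cannot be told apart. Klf6, a zinc finger factor, went from 4.42, 5.95 and 5.81 to 123, 169 and 100.3 CPM (log2 change 4.60 ± 0.39 (SE), adjusted p = 3.13e-05). Myc, a regulator of growth, went from 3.84, 2.28 and 3.19 to 51.6, 86.4 and 56.4 CPM. Egr1 went from 6.13, 10.1 and 11.3 to 91.4, 414 and 123 CPM and was highest in treated library 2. Atf3, a factor induced by many stresses, went from 0.314, 1.19 and 1.59 to 57.8, 123 and 19.3 CPM, again highest in treated library 2 and lowest in library 3. Without treated library 2 the log2 change went from 4.51 to 3.55 in Egr1 and from 6.01 to 5.23 in Atf3. Jun, the best known AP-1 subunit, was at 15.7, 49.2 and 25.7 CPM untreated and 46.6, 66.4 and 45.2 CPM treated, overlapping between groups and not called (adjusted p = 0.123), but it was called without untreated library 2 (adjusted p = 0.00983). The summed counts of the 24 genes were 0.150%, 0.267% and 0.133% of all counts in the treated libraries, so library 2 was above the other two, against 0.0260%, 0.0342% and 0.0325% in the untreated ones. Without treated library 2 the genes called over the whole table numbered 2219 higher and 2198 lower.

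Dual-specificity phosphatases and Sprouty proteins, which switch off MAP kinases and are induced by them, rose alongside. 13 of 17 tested rose and none fell (median log2 change 2.29). Dusp5, a nuclear phosphatase of ERK, went from 0.9002, 1.45 and 2.09 to 249, 310.1 and 152 CPM, which is a log2 change of 7.32 ± 0.82 (SE) (adjusted p = 0.000292). Dusp10, a phosphatase of JNK and p38, went from 3.24, 2.04 and 2.01 to 20.1, 25.4 and 11.2 CPM. All treated livers lay above all untreated ones in both genes.

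Target genes of NRF2, the factor that answers to electrophiles and oxidants, rose more often than they fell. Of 30 tested, 16 rose and 2 fell. Srxn1, the sulfiredoxin that repairs oxidised peroxiredoxins, went from 51.3, 56.3 and 56.4 to 1708, 1716 and 1348 CPM (log2 change 4.86 ± 0.29 (SE), adjusted p = 4.37e-06), and the groups lay far apart. Hmox1, the haem-degrading enzyme that releases iron, went from 9.27, 15.4 and 14.1 to 893, 1548 and 772 CPM with the highest value in treated library 2. Gclc, the catalytic subunit of the rate-limiting step of glutathione synthesis, went from 386, 318 and 403 to 2376, 2704 and 2427 CPM. Txnrd1, a thioredoxin reductase, went from 145, 148 and 177 to 846, 903 and 817 CPM. Gsta1, a glutathione transferase, went from 0.414, 2.47 and 1.83 to 163, 147 and 136 CPM, although reads of the near-identical Gsta2 could be assigned to either gene. Nqo1, a quinone reductase widely used as an NRF2 readout, moved less, from 4.901, 4.73 and 7.58 to 13.2, 14.2 and 13.7 CPM. Slc7a11, the cystine importer that feeds glutathione synthesis, went from 0.0143, 0 and 0 to 1.84, 0.312 and 1.28 CPM and stayed low in all 6 livers. Its log2 change was 7.43, or 9.34 without untreated library 1, a fitted value that depends on the prior count. The 2 members that fell were the bile canalicular and basolateral export pumps Abcc2 (532, 590.3 and 588 to 379, 433 and 435 CPM) and Abcc3 (521, 503 and 545 to 289, 330.03 and 349 CPM), and Abcc2 lost its call without untreated library 2 or 3 or treated library 1 (adjusted p = 0.0597 to 0.0736). Nfe2l2, which encodes NRF2 itself, was not called (49.3, 48.2 and 46.3 CPM untreated, 69.99, 65.8 and 63.05 CPM treated).

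In the integrated stress response, which raises ATF4 and amino acid genes when translation initiation is slowed, 10 of 24 members tested rose and 2 fell. The median log2 change was 0.77, or 0.44 with Phgdh, which had no counts in untreated livers, set at its lower bound. Phgdh was among the rises, but that bound was only 0.758-fold and its groups overlapped. It lost its call without untreated library 1, 2 or 3 or treated library 2 or 3 (edgeR adjusted p = 0.0664 to 0.1104). Chac1, which degrades glutathione, went from 0.643, 0.338 and 0.492 to 10.1, 11.6 and 3.11 CPM (log2 change 4.07 ± 0.49 (SE), adjusted p = 0.000182) with treated library 3 the lowest of the treated. Psat1, of serine synthesis, went from 0.372, 0.441 and 0.358 to 17.7, 10.9 and 18.7 CPM, and Asns, the asparagine synthetase, from 1.59, 0.485 and 1.33 to 5.42, 5.96 and 6.33 CPM. Gdf15, a hormone secreted by stressed cells, went from 3.23, 6.48 and 7.9999 to 53.3, 159.99 and 97.8 CPM. Atf4 went from 56.2, 78.7 and 61.5 to 128, 153 and 101 CPM. Ddit3, the gene of the death-promoting factor CHOP, which overlaps Mars1 on the other strand, was not called and its levels overlapped, with 4.43, 8.905 and 7.08 CPM untreated and 5.56, 4.02 and 4.22 CPM treated. Trib3 and Fgf21, other targets of the ATF4 pathway, were not called either (adjusted p = 0.888 and 0.918). Atf4 lost its call without untreated library 1 or 3 or treated library 2 (adjusted p = 0.0523 to 0.0595), and Asns without untreated library 2 or 3 or treated library 3 (adjusted p = 0.0526 to 0.0777). Without untreated library 3 the number of members that rose was 6.

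Few protein folding genes rose. Of 20 cytosolic heat shock genes tested, 1 rose (5%) and 4 fell (20%), against 15.0% and 15.1% of all genes tested. Hspa1b, an inducible HSP70 gene, went from 26.3, 234 and 161 to 11.2, 11.4 and 2.52 CPM (log2 change -4.07 ± 1.15 (SE), adjusted p = 0.0252), with untreated library 1 well below the other untreated livers. Its near-identical neighbour Hspa1a went from 6.26, 64.4 and 42.4 to 3.61, 5.09 and 0.969 CPM, and reads may be shared between the pair. Hspa1b lost its call without untreated library 2 or 3 or treated library 1, 2 or 3 (adjusted p = 0.0562 to 0.06999), and Hspa1a did so when the same libraries were left out. Hspb8, a small heat shock protein, was the member that rose, from 120.03, 162 and 163 to 574, 676 and 438 CPM. Dnajb1, an HSP40 co-chaperone, was at 27.9, 55.2 and 47.7 CPM untreated and 26.5, 20.9 and 11.3 CPM treated and was not called (adjusted p = 0.133). Ubb, a polyubiquitin gene, fell from 575, 641 and 666 to 358, 395 and 345 CPM. The count of heat shock genes that fell rested on few samples. It was 2, 0 and 0 without untreated library 1, 2 or 3, it was 0, 2 and 0 without treated library 1, 2 or 3, and it was 2 without untreated control library 2 and 8 without treated control library 3, which share the fit. In the endoplasmic reticulum, 5 of 21 members tested fell (23.8%) and 2 rose (9.52%), with the same shares of all genes for comparison. Xbp1, a factor of the unfolded protein response, rose from 125, 138 and 132 to 309.6, 326 and 479 CPM, whereas Hspa5, the main chaperone of this compartment, was at 548, 845 and 725 CPM untreated and 935, 964 and 678 CPM treated and was not called. The number that fell was 2 or 3 without untreated library 2 or 3 or without any of the treated libraries, and 10 without treated control library 3. Bag3, a co-chaperone, was not called (adjusted p = 0.333). Proteasome subunits showed 2 rises among 31 tested (6.45%), and 1 without any 1 of the untreated libraries or treated library 1 or 2. Psmd8 went from 94.9, 88.5 and 94.3 to 146, 172 and 137 CPM.

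Promoters of 5 genes are shown because factors that act in the stress responses described above bind known short motifs. The sequences are RefSeq promoter windows on GRCm38.p6, given as the 250 bases before the annotated start, upstream of the first exon, on the strand of the gene. Capitals mark matches to the motifs searched, on either strand: AP-1 site TGANTCA, cyclic AMP response element TGACGTCA, antioxidant response element core TGACNNNGC, amino acid response element TGATGNAA, heat shock element GAANNTTC and TATA box TATAAA. The genes are Ch25h and Sprr1a, from the 3 largest rises, and the leading key member called in the NRF2 (Srxn1), integrated stress response (Chac1) and heat shock (Hspa1b) lists.
Ch25h, chr19:34475149-34475398, minus strand: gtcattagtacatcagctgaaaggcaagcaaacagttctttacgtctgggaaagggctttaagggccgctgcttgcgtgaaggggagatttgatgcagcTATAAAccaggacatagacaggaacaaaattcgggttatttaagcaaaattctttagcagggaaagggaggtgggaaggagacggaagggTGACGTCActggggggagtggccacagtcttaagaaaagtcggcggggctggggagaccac
Sprr1a, chr3:92485882-92486131, minus strand: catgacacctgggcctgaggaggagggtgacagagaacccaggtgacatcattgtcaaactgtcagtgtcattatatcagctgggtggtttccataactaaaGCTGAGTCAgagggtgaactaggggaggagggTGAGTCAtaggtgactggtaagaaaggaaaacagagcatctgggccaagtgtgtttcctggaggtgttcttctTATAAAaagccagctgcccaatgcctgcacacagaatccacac
Srxn1, chr2:152105274-152105523, plus strand: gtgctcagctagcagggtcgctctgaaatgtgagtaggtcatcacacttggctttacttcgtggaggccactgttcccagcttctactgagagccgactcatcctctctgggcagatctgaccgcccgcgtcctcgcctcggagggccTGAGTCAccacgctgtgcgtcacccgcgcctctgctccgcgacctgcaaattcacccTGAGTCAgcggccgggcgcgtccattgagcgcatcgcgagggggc
Chac1, chr2:119350992-119351241, plus strand: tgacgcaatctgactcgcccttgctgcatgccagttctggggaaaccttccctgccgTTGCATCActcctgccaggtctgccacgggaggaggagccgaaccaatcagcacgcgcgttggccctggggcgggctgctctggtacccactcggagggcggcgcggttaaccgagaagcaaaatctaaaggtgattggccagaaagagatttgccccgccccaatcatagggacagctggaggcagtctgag
Hspa1b, chr17:34959239-34959488, minus strand: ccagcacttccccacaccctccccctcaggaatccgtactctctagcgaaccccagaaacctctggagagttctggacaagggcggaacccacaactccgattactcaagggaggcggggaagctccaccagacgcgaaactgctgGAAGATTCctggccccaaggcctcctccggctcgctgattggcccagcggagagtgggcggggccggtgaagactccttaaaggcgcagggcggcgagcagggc

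Sprr1a, a cornified envelope protein gene, had no counts in untreated livers and 5.71, 3.86 and 2.85 CPM in treated ones, at least 23.6-fold higher. Its window holds AP-1 letters at -146 to -140 and at -116 to -110 relative to the start, the former overlapping an antioxidant element on the other strand, and a TATA box at -43 to -38. Ch25h, the cholesterol 25-hydroxylase, had no counts in untreated livers and 8.15, 7.81 and 6.26 CPM in treated ones, at least 42.3-fold higher. Its window holds a cyclic AMP response element at -61 to -54 and TATA box letters at -151 to -146. The Srxn1 window holds TGAGTCA at -102 to -96 and at -45 to -39. It also holds an antioxidant element on the other strand at 28 to 36, after the start and beyond the bases shown. The Chac1 window holds the amino acid response element on the minus strand at -193 to -186, and the Hspa1b window the heat shock letters at -104 to -97. Of the genes tested, 11837 had a window under their symbol, and the 9467 with exactly 1 window were counted over all 300 bases, which include 50 after the start. AP-1 letters were in 9.64% of 415 genes that rose at least 4-fold, 5.48% of 219 that fell at least 4-fold, 5.37% of 6385 not called and 7.81% of all 32851 RefSeq windows. The antioxidant core was in 17.1%, 12.3%, 14.6% and 12.4% of the same sets. The TATA box was in 14.2%, 13.7%, 7.99% and 13.6%, so it was more frequent in both called sets than in genes not called. The amino acid letters were in 3.13%, 2.28%, 2.40% and 3.97%, the heat shock letters in 7.23%, 5.94%, 5.73% and 7.86%, and the cyclic AMP element in 3.86%, 0.913%, 2.91% and 1.79%. These shares are descriptions of short letter matches, with no test.

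Of 29 ribosome biogenesis genes tested, which build ribosomal subunits in the nucleolus, 25 rose and none fell, with a median log2 change of 1.28. Rrp12 went from 7.76, 7.95 and 8.06 to 32.7, 27.8 and 38.6 CPM (log2 change 2.06 ± 0.18 (SE), adjusted p = 2.80e-05), Nop56 from 14.6, 15.7 and 16.04 to 57.9, 63.8 and 62.5 CPM, and Ncl, the nucleolin gene, from 127, 132 and 126 to 203, 215 and 193 CPM. Of 20 tRNA synthetases 14 rose and none fell, by smaller amounts (median log2 change 0.47), as in Nars, from 75.9, 73.3 and 73.7 to 129.9, 129.5 and 111 CPM. Cytosolic ribosomal proteins had 6 rises among 44 tested, 13.6%, near the 15.0% of all genes tested. That number was 2, 3 and 3 without untreated library 1, 2 or 3, 2, 2 and 22 without treated library 1, 2 or 3, and 11 without treated control library 3. A test of the difference between these lists was not run.

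Most cytoskeleton genes rose, with 20 of 24 rising and 1 falling. Its genes encode actins, tubulins, myosins and the keratins of the hepatocyte. Krt8 and Krt18, which pair into the keratin filaments of hepatocytes, went from 145, 176 and 179 to 3489, 3862 and 3131 CPM and from 108, 127 and 123 to 1476, 1523 and 1380.2 CPM. Actb went from 262, 268 and 276 to 1783, 2127 and 1742 CPM and Actg1 from 63.4, 63.5 and 61.99 to 1764, 1975 and 1447 CPM, with the caution that actin copies share reads. The tubulin genes Tubb2a (72.6, 51.2 and 73.4 to 420.5, 436 and 435 CPM), Tuba1c (45.8, 55.7 and 54.7 to 193, 223 and 168 CPM, log2 change 1.90 ± 0.18 (SE), adjusted p = 3.63e-05) and Tubb6 (7.54, 8.302 and 8.28 to 127, 129.8 and 124 CPM) rose too. Summed over the list, the share of counts went from 0.124%, 0.130% and 0.134% to 0.992%, 1.04% and 1.04%.

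Of 22 p53 target genes tested, 12 rose and 1 fell. Gadd45a, a growth arrest gene, went from 0.814, 0.838 and 0.983 to 16.6, 57.96 and 14.6 CPM and was highest in treated library 2 (log2 change 5.08, or 4.15 without that library). Cdkn1a, the cell cycle inhibitor p21, went from 33.01, 10.6 and 28.9 to 154, 182 and 191 CPM, and Mdm2, the p53 ubiquitin ligase, from 27.05, 28.8 and 26.7 to 62.7, 106 and 58.8 CPM. Cdkn1a lost its call without untreated library 2 or 3 (adjusted p = 0.0555 to 0.06601), and without untreated library 3 the number of rises was 7. Among apoptosis and necroptosis regulators 11 of 27 rose and 3 fell, and the rises held genes on both sides of cell death. Apaf1, the apoptosome scaffold, went from 1.0002, 1.31 and 1.76 to 9.66, 10.8 and 12.9 CPM, the survival gene Mcl1 from 93.98, 88.6 and 88.2 to 462, 559 and 323 CPM, and Tnfrsf12a, the receptor Fn14, from 8.89, 8.99 and 8.88 to 283, 342 and 243 CPM. Without untreated library 2 the number of rises was 7, and without treated control library 3, which shares the fit, the falls numbered 5.

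Clock, hypoxia and autophagy genes changed in both directions. Of 17 clock genes tested, 4 rose (23.5%) and 5 fell (29.4%), against 15.0% and 15.1% of all genes tested. The labels do not give the hour of day at which livers were taken. Per1 went from 35.1, 44.7 and 37.5 to 93.3, 126 and 104 CPM and Bhlhe41, a repressor of the clock, from 0.3001, 0.411 and 0.551 to 7.66, 10.6 and 6.12 CPM, whereas Arntl and Dbp were not called (adjusted p = 0.268 and 0.374). The rises numbered 2 without untreated library 1 or 3 or treated library 1 or 2, and the falls 3 without untreated library 2 or treated library 2 or 3. Among genes of the hypoxia response 6 of 19 rose (31.6%) and 4 fell (21.1%), with the same shares of all genes for comparison. Hif1a, the oxygen-regulated factor, went from 33.1, 35.6 and 32.6 to 164, 205 and 177 CPM and Adm, the vasodilator adrenomedullin, from 0.872, 0.558 and 0.626 to 5.31, 8.12 and 4.25 CPM, but Egln3, an oxygen-sensing hydroxylase that HIF normally induces, fell from 16.1, 16.1 and 15.3 to 7.94, 5.84 and 8.23 CPM. The glycolysis genes Ldha and Aldoa were not called (adjusted p = 0.101 and 0.0784). The falls numbered 2 without untreated library 1 or treated library 1 and 1 without untreated or treated library 3. In lysosome and autophagy 8 of 29 rose (27.6%) and 7 fell (24.1%), again beside those shares of all genes. Sqstm1, the autophagy receptor p62 and an NRF2 target, went from 482, 547 and 575 to 1755, 2115 and 1345 CPM, and Ctsl, a lysosomal protease, from 495, 509 and 463 to 1239.8, 1389.8 and 999 CPM. The rises numbered 5 without untreated or treated library 1 or 2. Map1lc3b, the gene of LC3B, was not called (130.4, 129.7 and 127 CPM untreated, 111, 139.6 and 114 CPM treated).

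Of 20 RNA binding and decay factors 8 rose (40%) and 3 fell (15%), against 15.0% and 15.1% of all genes tested. Hnrnpa1, a splicing factor, went from 25.5, 26.1 and 25.3 to 76.6, 81.3 and 91.9 CPM (log2 change 1.70 ± 0.15 (SE), adjusted p = 2.84e-05), and the cold-inducible gene Rbm3 from 19.1, 23.5 and 18.8 to 78.1, 68.7 and 65.7 CPM. Of 19 histone and chromatin regulators tested, 4 rose (21.1%) and 2 fell (10.5%). The rises numbered 1 without untreated library 1 and 2 without untreated library 3 or treated library 2. The falls numbered 1 without untreated library 1 or 3 and 4 without treated control library 3. Hdac5, a histone deacetylase, fell from 50.5, 42.7 and 40.2 to 13.9, 20.5 and 14.6 CPM. Proliferation genes had 5 rises (18.5%) and 3 falls (11.1%) among 27 tested, near the 15.0% and 15.1% of all genes tested, with 2 and 3 rises without untreated or treated library 3, and 1 fall without treated library 1. Cdkn1b, the cell cycle inhibitor p27, fell from 17.03, 14.6 and 14.6 to 6.65, 5.46 and 7.08 CPM. Mki67, expressed in dividing cells, stayed at 0.514, 1.12 and 0.72997 CPM untreated and 0.875, 0.0656 and 1.49 CPM treated, and Ccnd1, the cyclin of G1 entry, was not called (5.86, 10.8 and 8.95 CPM untreated, 20.3, 12.6 and 27.7 CPM treated).

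Growth factor ligands and receptors were called in both directions. Of 22 ligands and receptors tested, 7 rose (31.8%) and 4 fell (18.2%), against 15.0% and 15.1% of all genes tested. The EGF receptor ligands Hbegf (0.443, 0.323 and 0.521 to 25.8, 108 and 21.9 CPM), Btc (1.24, 1.47 and 1.34 to 15.9, 11.9 and 13.2 CPM) and Areg (0 in each untreated liver, 0.983, 3.45 and 1.21 CPM treated) rose, and treated library 2 held the highest Hbegf and Areg. Without it the log2 change of Hbegf went from 6.91 to 5.79, and the fitted change of Areg, which depends on the prior count, from 10.05 to 9.30. Hgf, the hepatocyte growth factor of stellate and endothelial cells, went from 1.86, 2.04 and 1.28 to 10.7, 9.68 and 14.7 CPM. Among receptors, Insr, the insulin receptor, fell from 135, 149 and 136 to 56.7, 55.1 and 64.8 CPM, Erbb3 from 137, 121 and 102 to 13.2, 16.04 and 11.4 CPM, and Ghr, the growth hormone receptor, from 322, 382 and 339.8 to 202, 187 and 174 CPM. Calls in the other direction were found in both classes, since the receptor Igf1r rose from 1.64, 1.68 and 1.25 to 4.35, 3.97 and 3.68 CPM and the ligand Fgf1 fell from 98.5, 105 and 87.4 to 48.6, 48.7 and 47.5 CPM. Egfr itself was not called (264, 484 and 425 CPM untreated, 359, 357 and 428 CPM treated).

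Pericentral hepatocyte genes, which Wnt signals from the central vein maintain, had the largest share of falls of the lists examined. 22 of 25 tested fell and none rose. The median log2 change was -3.43, or -3.16 with the 2 genes that lost all counts set at their bounds. Slc13a3, a dicarboxylate transporter, went from 6.19, 11.3 and 7.598 CPM to 0 in each treated liver, at least 44.9-fold lower. Slc1a2, a glutamate transporter, went from 144, 187 and 177 to 0.123, 0 and 0.0596 CPM. Lgr5, the R-spondin receptor, went from 10.002, 6.99 and 6.33 to 0, 0 and 0.0894 CPM, and Tbx3, a target of the same pathway that overlaps its antisense gene Tbx3os1, from 39.9, 28.6 and 38.7 to 0.6296, 0.673 and 0.671 CPM. Cyp1a2, a P450 that can oxidise acetaminophen, went from 433, 363 and 447 to 77.7, 50.4 and 47.6 CPM (log2 change -2.82 ± 0.24 (SE), adjusted p = 2.30e-05). Gulo, of vitamin C synthesis, went from 292, 329 and 279 to 31.9, 22.6 and 29.1 CPM. Rgn, the calcium-binding regucalcin, fell from 348, 417 and 414 to 98.1, 59.9 and 45.6 CPM, and Lect2 from 27.4, 42.3 and 33.5 to 5.08, 3.56 and 2.92 CPM. In each of these genes all treated livers were below all untreated ones. The log2 change went from -7.90 to -12.11 in Lgr5 without treated library 3 and from -11.38 to -12.33 in Slc1a2 without treated library 1, fitted values that depend on the prior count. Of the Wnt pathway ligands of liver endothelium, the R-spondin gene Rspo3 was not called (3.17, 1.38 and 1.92 CPM untreated, 4.01, 1.89 and 3.31 CPM treated). Wnt2 was not called either (2.74, 3.35 and 1.91 CPM untreated, 2.52, 2.33 and 1.25 CPM treated). Taken as a share of all counts, the 25 genes went from 1.49%, 1.46% and 1.45% to 0.214%, 0.157% and 0.162%.

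Periportal genes changed in both directions. Of 24 tested 9 rose and 2 fell (median log2 change 0.43). Cdh1, the epithelial cadherin, went from 35.5, 29.1 and 34.2 to 205, 220.1 and 168 CPM, and Cyp2f2, a periportal P450, from 839, 924 and 1045 to 1411, 1647 and 1547 CPM. Pck1, of gluconeogenesis, fell from 4508, 4296 and 4156 to 1404, 1935 and 1050.5 CPM. Cps1, the entry enzyme of the urea cycle, and Hal, the histidine lyase, were not called (adjusted p = 0.278 and 0.372). The number of rises was 5 without untreated library 3 and 5 without treated library 1. Plasma carrier genes had 1 rise and 1 fall among 25 tested (median log2 change 0.08). The rise was Apoa4, an apolipoprotein of triglyceride-rich particles, from 524, 437 and 163 to 2829, 5157 and 2826 CPM, a call lost without untreated library 2 or 3 (adjusted p = 0.0531 to 0.0587). A test of the difference between the zonal lists was not run, and the plot of hepatocyte programmes gives every member.

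**Figure D2:**
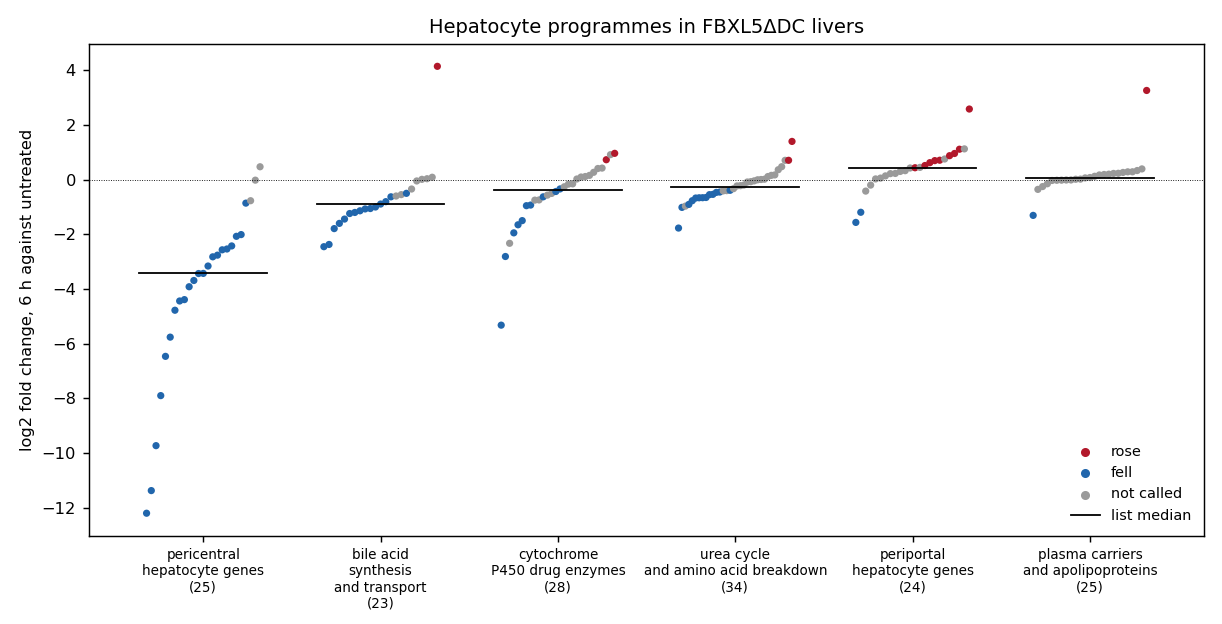
Each point is 1 tested gene of 6 hepatocyte lists, ordered by its edgeR log2 fold change in FBXL5ΔDC livers (6 h against untreated, vertical axis), red where it rose, blue where it fell and grey where it was not called, with the list median as a bar and the number of genes in brackets. The pericentral points lie lowest, with a median of -3.43, and the periportal median is 0.43.

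Bile acid and drug handling genes fell in large numbers. In bile acid synthesis and transport, 15 of 23 tested fell and 1 rose. Cyp7a1, the rate-limiting enzyme of bile acid synthesis, went from 56.4, 40.2 and 42.8 to 0.722, 0 and 0.834 CPM. Abcb11, the bile salt export pump, fell from 448, 397 and 509.9 to 139.8, 172 and 188 CPM, and Slco1b2, an uptake carrier of the sinusoidal membrane, from 971, 959.9 and 976 to 306, 332 and 203 CPM (log2 change -1.79 ± 0.20 (SE), adjusted p = 9.95e-05). Nr0b2, the repressor SHP, fell from 26.3, 23.2 and 28.7 to 5.67, 3.82 and 5.65 CPM. Slco1a1, another carrier, fell from 266, 347 and 333 to 119, 71.4 and 122 CPM, and Cyp7b1, of the alternative synthesis route, from 117, 165 and 140.2 to 82.6, 24.2 and 72.4 CPM, a call lost without untreated library 1, 2 or 3 or treated library 2 or 3 (adjusted p = 0.0655 to 0.129). Slc10a1, the sodium-dependent bile acid importer, was not called (390.3, 401 and 391 CPM untreated, 372, 498 and 324 CPM treated). Among other P450 drug enzymes 10 of 28 fell and 2 rose, and without untreated library 2 the number that fell was 6. Cyp3a11, an abundant drug oxidase, went from 6564, 5603 and 8531 to 1968, 1476 and 1934 CPM, while Por, the reductase that all microsomal P450 enzymes need, was not called (689.8, 665 and 700.3 CPM untreated, 695, 717 and 682 CPM treated). In conjugation 10 of 28 fell and 1 rose, or none without untreated library 1 or 2 or treated library 1 or 2. Sult2a8 went from 683, 759.6 and 676 to 328, 270.4 and 229 CPM, whereas Ugt1a6a, Sult1a1 and Gstp1, which act on acetaminophen or its metabolite, were not called (adjusted p = 0.105, 0.9695 and above 0.99).

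Transcription factors of the hepatocyte fell more often than they rose, with 11 falls and 2 rises among 28 tested. The falls included Nr2f2 (35.8, 32.6 and 26.1 to 7.32, 7.48 and 9.701 CPM) and the dioxin receptor Ahr (49.3, 43.5 and 51.3 to 13.3, 10.9 and 11.7 CPM). Hnf4a and Cebpa, central factors of hepatocyte identity, were not called. Hnf4a was at 729, 769.5 and 899 CPM untreated and 613, 697 and 969 CPM treated, and Cebpa at 375, 417 and 383 CPM untreated and 392, 510.1 and 247 CPM treated. Ppara, the nuclear receptor of fatty acid oxidation, fell from 76.1, 95.2 and 83.2 to 16.1, 16.98 and 30.6 CPM. The list of its targets had 6 falls (18.8%) and 2 rises (6.25%) among 32 tested, against 15.1% and 15.0% of all genes tested. The rises numbered 1 without any 1 of the 6 libraries and 4 without treated control library 3. Cpt1a and Cyp4a14, among its usual targets, were not called (adjusted p = 0.0759 and 0.245). In amino acid breakdown 13 of 34 fell and 2 rose, or 1 without untreated library 3. Sdsl, related to serine dehydratase, rose from 26.6, 22.04 and 18.1 to 55.4, 70.99 and 50.1 CPM, the smallest p of the list (adjusted p = 0.000657), and Hpd of tyrosine degradation fell from 2827, 2081 and 1972 to 1363, 1628 and 1334 CPM. Hpd lost its call without untreated library 1 or treated library 1 or 3 (adjusted p = 0.0534 to 0.0825), and the number of falls was 8 and 6 without untreated library 1 or 2 and 8 without treated library 1. In cholesterol synthesis 7 of 25 fell and 3 rose, Hmgcs1 going from 96.5, 114 and 95.1 to 38.9, 40.5 and 38.8 CPM. The number of falls was 3 or 4 without untreated library 2 or 3 or any of the treated libraries. In glucose and glycogen handling 4 of 25 rose (16%) and 6 fell (24%), against 15.0% and 15.1% of all genes tested. Of 3 glycogen-targeting phosphatase subunits listed, Ppp1r3b fell from 249.9, 159 and 220.5 to 4.73, 3.69 and 6.82 CPM and Ppp1r3c from 72.2, 30.6 and 46.97 to 3.75, 1.94 and 3.28 CPM. The other, Ppp1r3g, was not called (0.0286, 0.0882 and 0.0149 CPM untreated, 0.353, 15.7 and 0.0745 CPM treated, adjusted p = 0.0759). The hexokinases Hk1 (1.79, 2.03 and 1.46 to 11.4, 12.5 and 14.9 CPM) and Hk2 (0.643, 0.294 and 0.655 to 3.01, 2.66 and 4.22 CPM) rose from low levels. In lipid synthesis 4 of 22 rose (18.2%) and 5 fell (22.7%), with the same shares of all genes for comparison. The falls numbered 3 without untreated library 2 or 3 or treated library 1. Acacb, an acetyl-CoA carboxylase, fell from 44.1, 52.5 and 31.4 to 11.8, 12.4 and 14.6 CPM and Mlxipl, the sugar-sensing factor ChREBP, from 108, 98.3 and 95.4 to 38.4, 55.4 and 64.5 CPM, while Elovl6, a fatty acid elongase, rose from 22.4, 34.8 and 21.99 to 63.8, 49.97 and 60.8 CPM. Hsd3b5, a male-biased steroid dehydrogenase of liver, went from 12.5, 12.1 and 11.5 to 0.445, 0 and 0.179 CPM, and Mup17, a urinary protein gene with near-identical copies, from 12273, 15158 and 9419 to 632, 116 and 381 CPM. Without treated library 1 the log2 change went from -5.83 to -7.00 in Hsd3b5 and from -5.03 to -5.63 in Mup17.

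**Figure D3:**
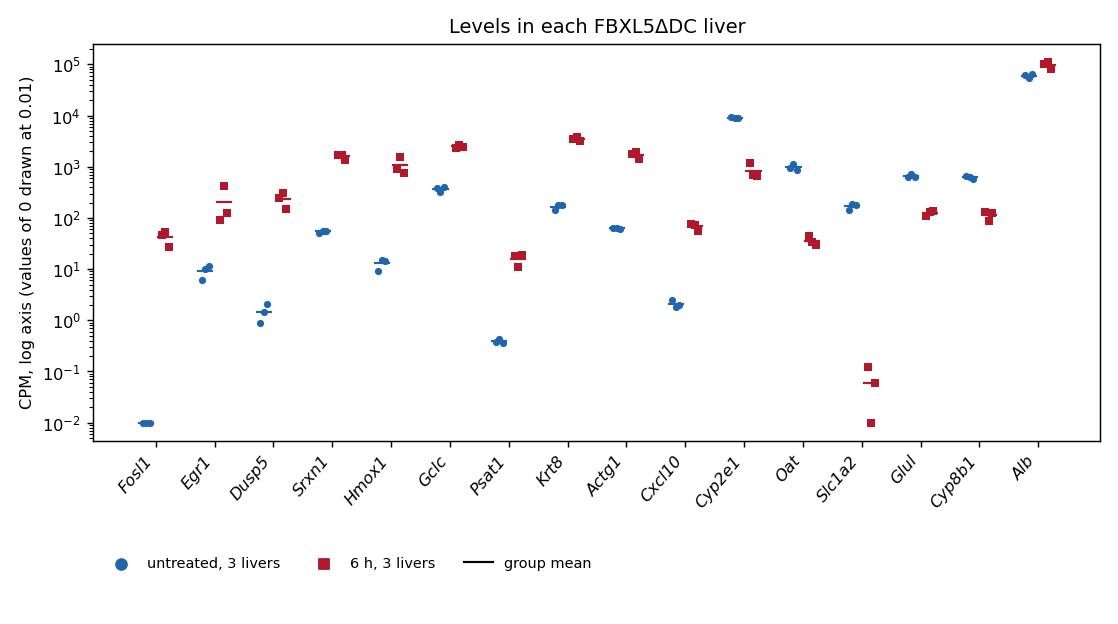
CPM on a log axis of 16 genes in each FBXL5ΔDC liver, with untreated livers as blue circles, treated livers as red squares and group means as bars (values of 0 are drawn at 0.01). In every gene shown the 3 treated livers lie on one side of the 3 untreated ones, Slc1a2 falling from 144, 187 and 177 to 0.123, 0 and 0.0596 CPM.

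Inflammatory genes rose from low levels. Of 26 chemokine, cytokine and adhesion genes tested, 12 rose and 2 fell. The median log2 change was 2.34, or 1.74 with 4 genes at 0 in a group set at their bounds. Cxcl1, which attracts neutrophils, went from 0.4001, 0.764 and 0.238 to 48.9, 73.2 and 56.02 CPM, Cxcl10, which attracts T cells, from 2.54, 1.84 and 2.01 to 75.6, 73.3 and 55.8 CPM, and Ccl2, which attracts monocytes, from 0, 0.132 and 0 to 1.704, 1.16 and 1.28 CPM (log2 change 4.92, or 9.61 without untreated library 2). The value of 9.61 depends on the prior count, since the untreated libraries left held 0 counts of Ccl2. Csf1, the macrophage growth factor, went from 3.92, 3.73 and 4.08 to 17.2, 15.4 and 17.3 CPM (log2 change 2.09 ± 0.18 (SE), adjusted p = 2.22e-05). NF-kB feedback genes had 11 rises and 1 fall among 17 tested. Tnfaip3, the inhibitor A20, rose from 1.83, 2.07 and 1.82 to 7.202, 7.69 and 6.795 CPM, and the fall was Nfkbia, the inhibitor IkB-alpha, from 46.02, 42.3 and 43.3 to 26.8, 31.3 and 32.7 CPM. Interferon-stimulated genes had 18 rises and 1 fall among 30 tested (median log2 change 1.23). Ifit1 went from 3.72, 5.67 and 5.94 to 16.1, 12.3 and 14.96 CPM, Isg15 from 2.71, 3.61 and 3.65 to 8.37, 6.84 and 7.96 CPM and Mx2 from 2.29, 4.06 and 3.099 to 7.92, 12.5 and 10.6 CPM. Ifit1 and Isg15 lost their calls without untreated library 1 (adjusted p = 0.0529) and without untreated library 1 (adjusted p = 0.0513), and Nfkbia without untreated library 1 or treated library 1 (adjusted p = 0.0503 to 0.0595).

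Acute phase genes, the secreted and signalling genes that cytokines induce in hepatocytes, were divided, with 11 rises and 3 falls among 28 tested. The metallothioneins Mt1 (56.9, 108 and 69.7 to 1882, 2298 and 1850.01 CPM) and Mt2 (29.9, 63.7 and 32.7 to 1603, 1892 and 1476 CPM) and Socs3, the feedback inhibitor of STAT3 (4.22, 5.22 and 6.75 to 65.9, 95.96 and 79.5 CPM), rose. The serum amyloid gene Saa2 fell from 10.7, 495 and 33.2 to 9.46, 6.76 and 5.11 CPM, a value set by untreated library 2, which was also high in Saa1 (40.9, 809 and 136 CPM) and Lcn2 (3.24, 102 and 4.35 CPM). Saa1 and Lcn2 were not called, Saa1 was called without untreated library 1 (adjusted p = 0.0389), and Saa2 lost its call without untreated library 2 or treated library 1, 2 or 3 (adjusted p = 0.117 to 0.289). In coagulation 8 of 26 tested rose (30.8%) and 4 fell (15.4%), the latter near the 15.1% of all genes tested. Plaur, the urokinase receptor, went from 0.10002, 0.309 and 0.0894 to 11.1, 15.6 and 10.4 CPM (log2 change 6.20, or 7.00 without untreated library 2), and the fibrinogen gene Fgb from 2442, 2611 and 2743 to 4042, 4903 and 5275 CPM. The number of rises was 4 without untreated library 1 and 5 without treated library 2. Complement genes had 5 rises and 5 falls among 24 tested, 20.8% each, against 15.0% and 15.1% of all genes tested. C3, the central component, was not called (6393, 9859 and 8585 CPM untreated, 8693, 9121 and 8133 CPM treated). Cd55, which protects cells from complement, went from 7.07, 6.32 and 5.91 to 18.7, 15.5 and 14.2 CPM. Complement rises numbered 3 without untreated library 3 or treated library 1, and the falls numbered 2 without any 1 of the untreated and 3 without any 1 of the treated libraries.

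Iron genes, which FBXL5 helps to control through IRP2, changed in both directions. Of 23 tested, 4 rose (17.4%) and 6 fell (26.1%), against 15.0% and 15.1% of all genes tested. The rises numbered 2 without untreated library 1, untreated library 2 or treated library 2. The ferritin genes rose, Fth1 from 1265, 1214 and 1495 to 2773, 3263 and 2195 CPM and Ftl1 from 3210.2, 3727 and 4412 to 6220.1, 6581 and 4431 CPM. Ferritin has processed copies in the genome, so part of these counts may be shared. Ftl1 lost its call without untreated library 1 or 2 or treated library 1 or 2 (adjusted p = 0.05397 to 0.0738). Id1, a target of the BMP signal that senses liver iron, went from 4.49, 1.87 and 2.13 to 10.6, 14.2 and 22.5 CPM (log2 change 2.48 ± 0.38 (SE), adjusted p = 0.000609). The genes of both iron regulatory proteins fell, Ireb2 (IRP2) from 85.3, 89.1 and 84.9 to 38.1, 33.3 and 49.97 CPM and Aco1 (IRP1) from 200.4, 203 and 197 to 136, 153 and 136 CPM. Tfrc, the transferrin receptor, was at 31.7, 28.7 and 26.2 CPM untreated and 30.6, 42.9 and 43.4 CPM treated and was not called. Slc40a1, the iron exporter ferroportin, was not called (129, 122 and 146 CPM untreated, 148, 217 and 97.5 CPM treated), nor was Hamp, the gene of hepcidin, which overlaps an antisense gene (214, 193 and 204 CPM untreated, 114, 216 and 141 CPM treated). Gpx4, the lipid peroxidase that protects from ferroptosis, was not called, at 202, 198 and 215 CPM untreated and 211, 231 and 172 CPM treated, while Gss, the glutathione synthetase, rose from 56.9, 53.2 and 64.8 to 106, 118 and 83.2 CPM.

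Mitochondrially encoded genes took 6.44%, 6.33% and 6.84% of counts in untreated and 8.94%, 9.43% and 9.19% in treated FBXL5ΔDC livers. Of 15 tested, 10 rose and the ribosomal RNA mt-Rnr1 fell. mt-Nd1, a complex I subunit, went from 4413, 4479.8 and 4932 to 7979.9, 8649.7 and 7350.5 CPM, and mt-Cytb from 8471, 8348 and 8889 to 14019, 14935 and 12499 CPM. Of 37 nuclear genes of the respiratory chain, Cycs, the cytochrome c gene, rose (91.01, 82.4 and 83.4 to 145, 153 and 116 CPM) and none fell. Without untreated library 1 or 2 or treated library 2 the mitochondrially encoded rises numbered 5, 4 and 5. Leaving mitochondrially encoded genes out of the counts gave 2585 genes higher and 2696 lower over the table.

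Markers of other liver cell types rose in some cases. Sinusoidal endothelial markers had 11 rises and no fall among 18 tested, Lyve1 going from 7.59, 5.25 and 4.499 to 26.3, 30.9 and 55.4 CPM and Stab2 from 28.05, 24.97 and 27.7 to 48.4, 45.6 and 63.1 CPM. Stellate and matrix markers had 11 rises among 18, and 7 without untreated library 2. Collagen Col1a1 and the stellate cell gene Lrat were not called (adjusted p = 0.936 and 0.171). The summed share of counts went from 0.0347%, 0.0262% and 0.0294% to 0.0512%, 0.0471% and 0.0669% for endothelial and from 0.0235%, 0.0156% and 0.0144% to 0.0420%, 0.0436% and 0.0559% for stellate markers. Of 14 Kupffer cell markers 4 rose and 1 fell, Cd68 rising from 1.74, 4.03 and 2.56 to 16.1, 15.1 and 11.7 CPM. The rises numbered 2 without treated library 1, and the falls 0 without any 1 of the untreated libraries or without treated library 2 or 3. The defining marker Clec4f was not called (53.6, 51.98 and 46.6 CPM untreated, 74, 51.6 and 79.3 CPM treated) other than without treated library 2 (adjusted p = 0.0158). Of 14 monocyte and macrophage markers 4 rose and none fell, Msr1, a scavenger receptor, going from 4.34, 5.33 and 4.72 to 14.5, 11.4 and 16.004 CPM. Of 10 cholangiocyte markers 5 rose, or 2 without untreated library 1, 2 or 3 or treated library 1 or 2, and 1 fell, or none without untreated library 1 or treated library 1 or 2. Sox9, which hepatocytes also express after injury, went from 7.07, 3.44 and 4.797 to 89.7, 203 and 40.5 CPM, with a log2 change of 4.44, or 3.68 without treated library 2. Of 9 neutrophil markers tested 6 rose, at low levels, as S100a9 did from 0.186, 0.2498 and 0.164 to 2.92, 1.71 and 0.775 CPM. That count was 2 and 1 without untreated library 2 or 3 and 3 and 1 without treated library 1 or 2. The neutrophil-defining genes Ly6g, Mpo and Elane were below the filter on low counts. The summed neutrophil share was 0.000210%, 0.000229% and 0.000134% of counts untreated and 0.00110%, 0.00111% and 0.000549% treated. None of 15 T and NK cell markers, 10 B cell markers or 7 red cell genes tested was called. The part of these cells in the liver-wide changes was not tested.

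**Figure D4:**
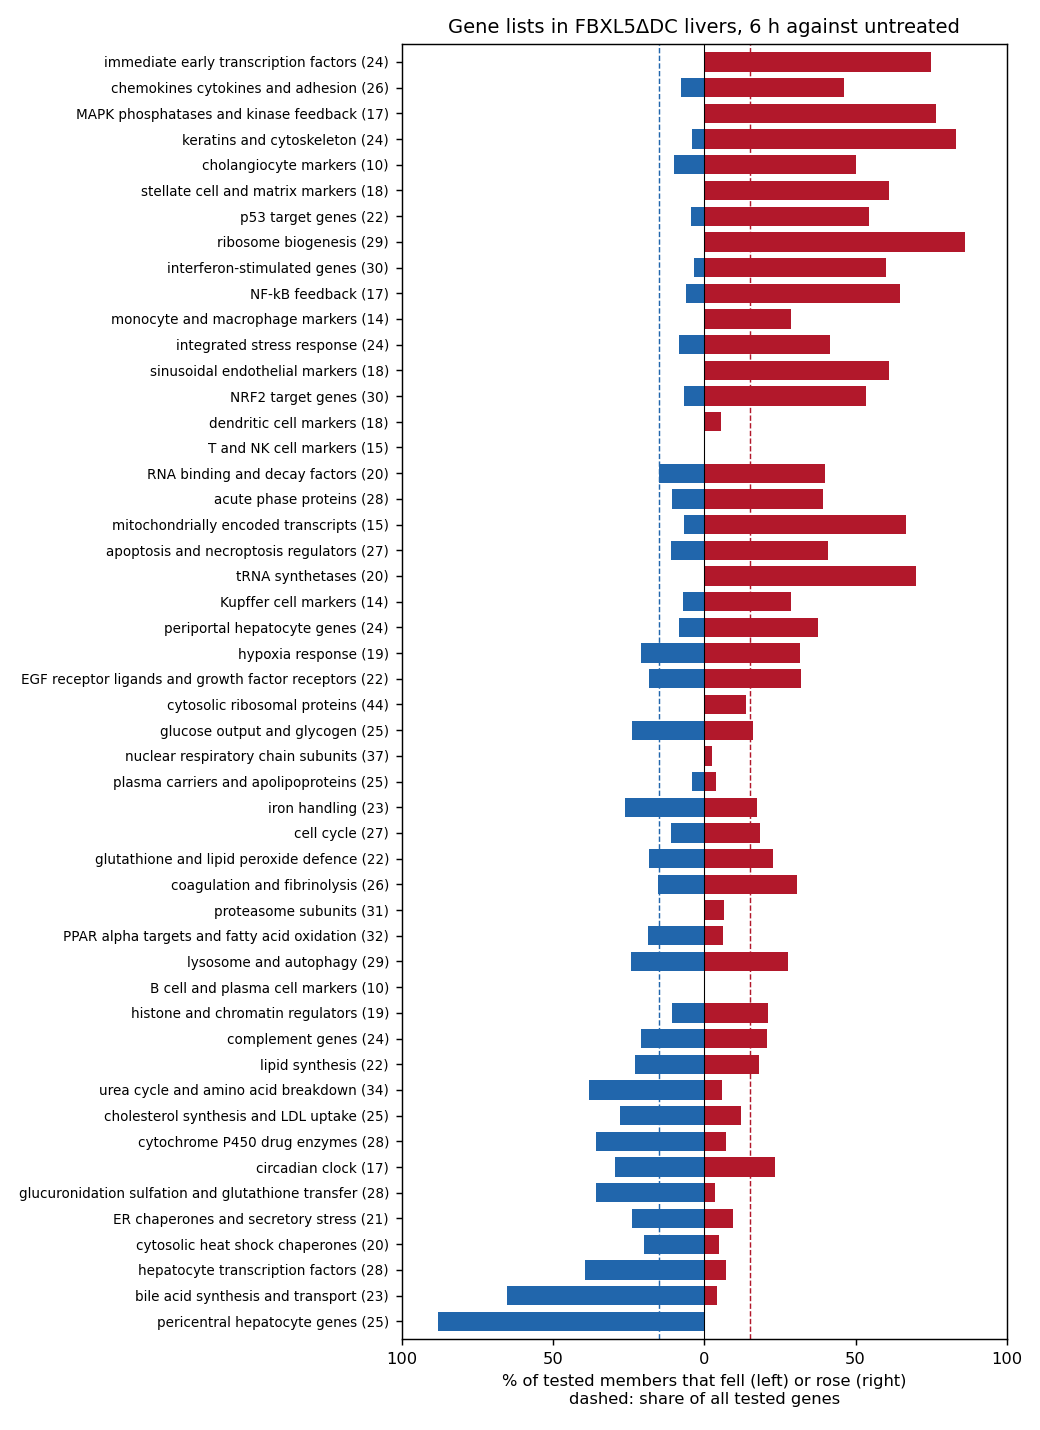
Bars give the percentage of tested members of each gene list with at least 10 members tested (number in brackets) that rose (right, red) or fell (left, blue) in FBXL5ΔDC livers at 6 h by edgeR at an adjusted p below 0.05, with lists ordered by median log2 change. Dashed lines mark the shares of all tested genes, 15.0% rising and 15.1% falling, and the pericentral list at the bottom has 22 of 25 members falling.

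The response of FBXL5ΔDC livers was then compared with that of control livers, by the interaction term of the same fit. Treated control library 3 stood apart within its group. Over the 5286 genes called in FBXL5ΔDC livers, the median log2 change in the FBXL5ΔDC direction, against the untreated mean of the genotype, was 0.35, 0.32 and 0.94 in treated control libraries 1, 2 and 3, and 1.12, 1.13 and 1.2 in the FBXL5ΔDC libraries that defined the set. The control values are therefore given for each library. With all 12 libraries the interaction was called for 51 genes, 0.290% of those tested, of which 6 were more positive and 45 more negative in FBXL5ΔDC livers. An unadjusted p below 0.05 was found for 2543 genes, and DESeq2 called 213 more positive and 473 more negative. Without treated control library 3 the calls numbered 1103 and 1430 and held all 51 genes. Without any 1 of the other libraries 1 to 18 genes were more negative, so the count rests on single libraries.

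Of the 45 genes with a more negative response, 40 were among those that fell in FBXL5ΔDC livers, against 15.1% of all genes tested. The interaction contains the FBXL5ΔDC change itself, so this overlap is partly built in. The pericentral list, with 25 of the 17585 genes tested, held 8 of all 51. Cyp2c38, a P450, had the smallest p (interaction -3.20 ± 0.32 (SE) on the log2 scale, adjusted p = 0.00459) and remained called under all 20 alternatives. It went from 47.2, 86.6 and 75.5 to 1.69, 1.53 and 2.01 CPM in FBXL5ΔDC livers and from 79.9, 87.8 and 67.5 to 21.98, 13.8 and 18.2 CPM in control livers. Cyp2e1, the main acetaminophen-oxidising P450, reached 1178, 701 and 649 CPM in treated FBXL5ΔDC and 4527, 2513 and 3493 CPM in treated control livers. Oat, the pericentral ornithine aminotransferase, reached 44.3, 34.5 and 29.997 CPM in the former and 389.7, 365 and 146 CPM in the latter. For Slc1a2 the treated levels were 0.123, 0 and 0.0596 CPM against 12.3, 11.1 and 1.099 CPM, and for Cyp1a2 they were 77.7, 50.4 and 47.6 CPM against 256, 202 and 135 CPM. In each of these genes every treated FBXL5ΔDC liver was below every treated control liver, library 3 included. They were chosen for an interaction called from these same libraries, so this separation is no independent check. Leaving out 1 library at a time raised the adjusted p as far as 0.109 for Cyp2e1, 0.09898 for Cyp1a2 and 0.16 for Slc1a2 without untreated control library 3, and 0.0966 for Oat without untreated control library 2.

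Other interaction genes were single members of stress lists, and Ubb, with higher levels in treated control than in treated FBXL5ΔDC livers. The interaction was called for 1 of 24 immediate early genes (Jun), 1 of 24 integrated stress response genes (Ddit3) and 1 of 20 heat shock genes (Dnajb1). It was called for 0 members of the NRF2, endoplasmic reticulum and p53 lists. Ddit3 was at 5.56, 4.02 and 4.22 CPM in treated FBXL5ΔDC livers and at 102, 111 and 55.1 CPM in treated control livers, after 4.43, 8.905 and 7.08 CPM in untreated FBXL5ΔDC and 4.18, 9.09 and 6.07 CPM in untreated control livers (interaction -4.36 ± 0.49 (SE), adjusted p = 0.0114). Jun was at 46.6, 66.4 and 45.2 CPM against 497, 304 and 371 CPM (interaction -3.17 ± 0.53 (SE), adjusted p = 0.0465). Dnajb1 was at 26.5, 20.9 and 11.3 CPM against 879.7, 592 and 191 CPM, and Ubb at 358, 395 and 345 CPM against 1127, 829 and 946 CPM. In these genes the treated groups of the 2 genotypes did not overlap, also with treated control library 3. This too is no independent check, since the genes were chosen for their called interaction. The call of Ddit3 was lost without untreated library 3 or treated library 2 or 3 or untreated control library 3 (adjusted p = 0.0537 to 0.0718). The calls of Jun and Dnajb1 were lost without any of the treated FBXL5ΔDC libraries, among others, with adjusted p-values up to 0.142 and 0.147. The call of Ubb was lost without untreated library 2 or 3 or treated library 2 or 3 or untreated control library 1, 2 or 3 (adjusted p = 0.0559 to 0.09596). Hspa1b followed the same order (11.2, 11.4 and 2.52 against 2860.2, 1546 and 385 CPM), but its interaction was not called (adjusted p = 0.0881). Atf3 was at 57.8, 123 and 19.3 CPM against 671, 583 and 416 CPM, without a called interaction either (adjusted p = 0.236). For Krt8 the treated control libraries held 519, 377 and 4056 CPM, of which only library 3 reached the FBXL5ΔDC level, and the interaction was not called (adjusted p = 0.6404). None of the 24 keratin and cytoskeleton genes had a called interaction. For Hbegf the treated control level was 1.44, 1.08 and 7.82 CPM against 25.8, 108 and 21.9 CPM in treated FBXL5ΔDC livers, and this interaction was not called (adjusted p = 0.166).

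**Figure D5:**
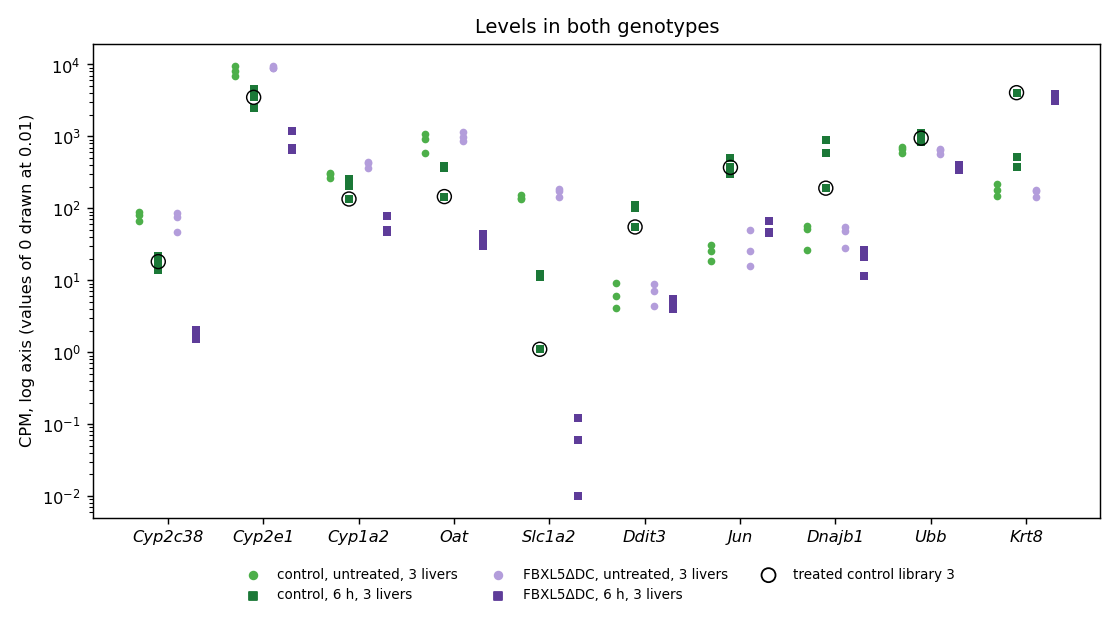
CPM on a log axis of 10 genes in each of the 12 livers, with untreated livers as circles and treated livers as squares in green (control) and purple (FBXL5ΔDC), and treated control library 3 ringed (values of 0 are drawn at 0.01). In the genes from Cyp2c38 to Ubb, chosen for a called interaction, every treated FBXL5ΔDC liver lies below every treated control liver. In Krt8 the ringed library reaches the FBXL5ΔDC level.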

How the data were processed

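RNA-seq was run on whole livers of FBXL5ΔDC and control mice, untreated and 6 h after acetaminophen, with 3 libraries in each of 4 groups. The submitters' processing notes name Trim Galore 0.6.6 for trimming, HISAT2 2.2.1 for alignment and the genome build mm10. The authors deposited estimated counts per gene for 55401 genes as whole numbers. A value of 4 was 1.79 to 2.11 times as frequent as the mean of its neighbours 3 and 5 in each library, although multiples of 4 made up only 26.5% to 28.5% of all values between 1 and 40. The counting program, strand setting and library kit are not given in the sources used here. The design had assumed raw counts, and these estimated counts entered as deposited, so the number of reads behind a low value is not known.

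Here the counts of all 12 libraries were fitted with edgeR 4.0.16 (R 4.3.3) by robust quasi-likelihood, with TMM scaling, filterByExpr and 1 mean per group, which left 17585 genes. The contrast was treated minus untreated FBXL5ΔDC livers, the interaction set it against the same contrast in control livers, and genes were called at a Benjamini-Hochberg adjusted p below 0.05. The script was tested on simulated data. Libraries were not paired by replicate number in the main fit. Alternatives used other scalings and filters, DESeq2 1.42.0, the FBXL5ΔDC groups alone, a replicate block, each library left out, and counts divided by 4 (added after seeing the data).

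Named genes were the 20 largest rises and falls called without overlap and with a mean of at least 2 CPM in the higher group, key members of gene lists, and the member of each list with the smallest p; other examples were chosen after their values were seen. Members and lists were chosen with earlier results of these data known, and list counts were not tested. Folds against a group with 0 counts used a floor of 12 counts in each library, above the usual 3, set after seeing that excess of 4. Gene positions are from GENCODE vM21 (GRCm38). Some genes are not reported here.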

Additional observations from a re-analysis of the deposited data

Results flagged for a closer look

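For the genes below, the change at 6 h differed between FBXL5ΔDC and control livers by the interaction term (edgeR, Benjamini-Hochberg over 17585 genes). Values are the interaction on the log2 scale, negative where the response was more negative in FBXL5ΔDC livers. Pericentral and drug handling genes were Cyp2c38 (-3.20), Slc13a3 (-9.36), Cyp1a2 (-2.26), Gulo (-2.29), Oat (-3.25), Cyp2e1 (-2.21) and Slc1a2 (-7.26). Tbx3os1, the antisense gene that overlaps the pericentral gene Tbx3, was at -8.28. Reads of this pair cannot be told apart without the strand setting, and the interaction of Tbx3 was not called (edgeR adjusted p = 0.0785). The values of Slc13a3, Tbx3os1 and Slc1a2 depend on the prior count, since nearly no counts were left in treated FBXL5ΔDC livers. The phosphatase gene Lhpp was at -3.38. Stress and protein turnover genes were Ddit3 (-4.36), Ubb (-1.35), Jun (-3.17) and Dnajb1 (-4.78). Of these 13 genes only Cyp2c38 kept its call in all 20 alternative fits, and none changed sign. For the other genes the largest adjusted p over the alternatives was between 0.0719 (Ddit3) and 0.16 (Slc1a2).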

How the results depend on the processing

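For the change in FBXL5ΔDC livers 15 alternatives were compared, and none of these left out a control library. The counts of genes that rose (2638) and fell (2648) stayed within 1.5 times under each of the 15. They ranged from 2310 and 2405 without a filter to 3124 and 3018 with DESeq2, and from 1849 to 2219 and from 1960 to 2292 with 1 FBXL5ΔDC library left out. Of 160 called genes named in the text, 141 kept their call and direction in all 15 alternatives and none reversed. A replicate block gave 2436 and 2468 genes, and 5 of the named genes lost their call. The correlation of deviations between libraries with the same number was 0.034, 0.011 and -0.092, so the numbers gave no sign of pairing. The interaction counts, 6 more positive and 45 more negative, moved more. Upper quartile scaling gave 2 and 18, DESeq2 213 and 473, the replicate block 24 more negative, and counts divided by 4, an alternative chosen after seeing the data, 28 more negative. Leaving out 1 library gave 0 to 1103 more positive and 1 to 1430 more negative, the highest without treated control library 3. The cause was not tested. Low levels limit precision: 243 of the genes that rose had a mean in untreated livers below the level of 12 counts.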
